A study of Homo sapiens with 14 samples.

Results

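The 10 genes described here encode the enzymes that make serine from a glycolytic intermediate and pass its carbon into the folate cycle: PHGDH, PSAT1, PSPH, SHMT1, SHMT2, MTHFD1, MTHFD1L, MTHFD2, ALDH1L2 and CBS. They were chosen by name from knowledge of the pathway, with earlier results of these data known. All 10 were among the 27142 genes of the count table. The cells were IMR90, a strain of normal human lung fibroblasts, grown in EMEM with 10% fetal bovine serum and labelled wild type. They received 20 uM 2',3'-dideoxycytidine (ddC), a nucleoside analogue that stops replication of mitochondrial DNA, for 24, 48, 72 or 96 h, with 3 libraries at each time. There were 2 untreated libraries, which the series text places at 0 h and the sample labels describe as kept 4 days with the water vehicle. No untreated library was given for 24, 48 or 72 h. Across the ddC times, length of exposure and time in culture therefore cannot be told apart. PolyA RNA was sequenced, and the series text calls the replicates biological without saying whether cultures were separate, so p-values measure the spread between these libraries. In such bulk RNA a change in the share of cells that express a gene and a change in RNA per cell cannot be told apart.

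Serine is made in the cytosol from 3-phosphoglycerate: PHGDH oxidises it, PSAT1 adds the amino group and PSPH removes the phosphate. SHMT1 in the cytosol and SHMT2 in mitochondria then split serine into glycine and a carbon unit carried on tetrahydrofolate. In mitochondria MTHFD2 oxidises that unit and MTHFD1L releases it as formate, while ALDH1L2 oxidises it to carbon dioxide. MTHFD1 carries out the matching reactions in the cytosol, and CBS joins serine to homocysteine at the start of transsulfuration. Several of these genes, PHGDH, PSAT1 and MTHFD2 among them, are known targets of the transcription factor ATF4, which many cells use when mitochondrial function or amino acid supply fails.

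Library totals ran from 9398703 to 12147402 counts. Of all genes, 13371 had enough counts to be tested, and these included 10 of 10 members. The 10 fibroblast markers were all detected, with a summed level of 35676 to 36304 CPM (a gene's count scaled to a common library total) in untreated cells and 40693 to 43668 CPM at 96 h. The 8 epithelial markers summed to 51.8 to 53.7 CPM in untreated cells and 63.9 to 69.7 CPM at 96 h, most of it KRT18 (39.7 to 59.4 CPM over all libraries) with KRT19 and CLDN4 next, and with CDH1 and SFTPC at 0 in every library. The 6 endothelial markers summed to 39.6 to 45.9 CPM in untreated cells and 37.4 to 42.5 CPM at 96 h. Most of that was TEK (34.2 to 46.4 CPM over all libraries), with PECAM1 and CDH5 at 0. The 7 blood cell markers summed to 51.5 to 54.0 CPM in untreated cells and 47.3 to 49.1 CPM at 96 h. Most of that was CD68 (43.2 to 61.7 CPM over all libraries), with CD3E at 0. A strand measure also moved with time: in 134 pairs of an abundant gene and a weakly expressed gene on the opposite strand, the weak partner held 0.755 to 0.808 reads per 1000 of the abundant gene in untreated cells, 0.688 to 0.807 at 24 h and 0.980 to 1.05 at 96 h. The part of the cell markers in the results was not tested. Fits with the strand measure as a covariate are given beside the results, except for count ratios, where none was run.

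The members spanned a wide range of transcript levels, and PHGDH and PSAT1, the first enzymes of serine synthesis, stood at the top of it. Levels between genes were set side by side as CPM per kb of transcript length, except in the count ratios further below. PHGDH was highest in 14 of 14 libraries, at a median of 119 CPM per kb and a range of 106 to 141. PSAT1 (median 103), SHMT2 (median 95.1) and MTHFD2 (median 88.5) followed. PSAT1 lay above SHMT2 in 9 of 14 libraries and SHMT2 above MTHFD2 in 12 of 14, so neither pair had a fixed order, whereas MTHFD2 lay above MTHFD1L (median 38.0) in 14 of 14. CBS had a median of 34.3 CPM per kb and lay below MTHFD1L in 13 libraries. In untreated cells CBS stood at 27.6 and 28.1 CPM per kb and MTHFD1L at 37.7 and 37.5. At 96 h CBS stood at 42.9, 41.1 and 45.7 and MTHFD1L at 44.4, 43.4 and 41.2, so their ranges met at that time. MTHFD1 (median 22.4) and ALDH1L2 (median 20.0) changed places between libraries, with MTHFD1 higher in 9 of 14. PSPH, the last enzyme of serine synthesis, was lower at a median of 12.6 CPM per kb, and SHMT1, the cytosolic serine hydroxymethyltransferase, was lowest in every library at a median of 6.96 (range 6.19 to 7.71).

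**Figure D1:**
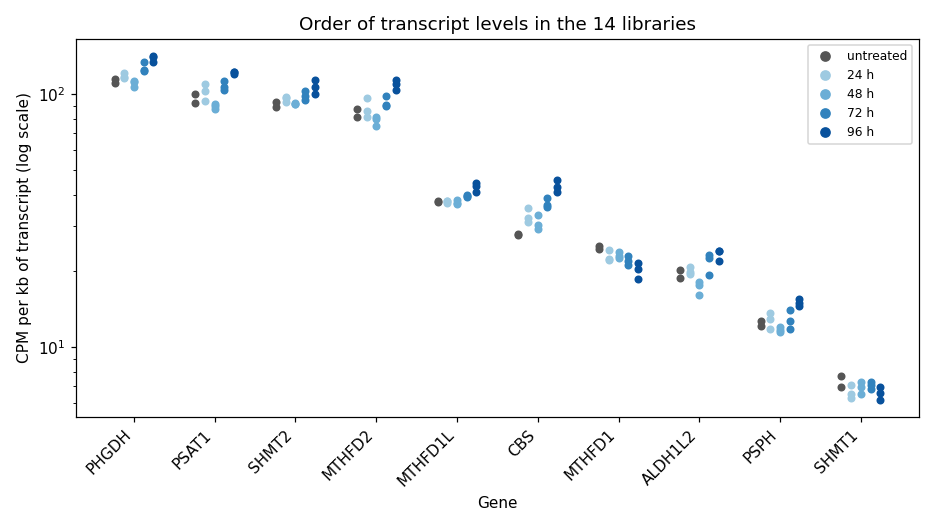
CPM per kb of transcript (log scale) of the 10 members, ordered by their median over the 14 libraries. Each point is 1 library and the shade gives hours of ddC. PHGDH lies highest (106 to 141) and SHMT1 lowest (6.19 to 7.71), and the CBS points rise to meet those of MTHFD1L at 96 h.

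After 96 h of ddC, 6 of the 10 genes rose against untreated cells and 1 fell. The risers were PHGDH, PSAT1, SHMT2, MTHFD2, ALDH1L2 and CBS, by 1.17 to 1.55 times, and MTHFD1 fell to 0.82 of its untreated level. PSPH, MTHFD1L and SHMT1 did not pass the threshold of an adjusted p under 0.05 (edgeR quasi-likelihood test, Benjamini-Hochberg over all genes tested). Over all genes 5.68% were called in either direction, 3.57% higher and 2.11% lower. The members' median log2 fold change was 0.27, beside -0.0039 over all genes tested, and 8 of 10 lay above 0. Library values of untreated and 96 h cells did not overlap for 8 members that were higher and 2 that were lower, beside 20.6% and 19.8% of all genes.

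In the serine branch, PHGDH (hg19 chr1:120254419-120286849, plus strand), which catalyses the first and committed step, stood at 229 and 221 CPM in untreated cells. It stood at 279, 268 and 283 CPM at 96 h. Each of the 96 h libraries was above both untreated ones, and PHGDH rose by 0.30 ± 0.06 (log2 fold change ± SE, edgeR adjusted p = 0.00319). PSAT1 (chr9:80911991-80945009, plus strand), the aminotransferase, stood at 225 and 207 CPM untreated and at 269, 275 and 274 CPM at 96 h. The 3 late libraries lay close together and above both untreated ones, a rise of 0.34 ± 0.07 (edgeR adjusted p = 0.00324). PSPH (chr7:56078744-56119268, minus strand), the phosphatase, went from 25.5 and 26.7 CPM to 30.7, 32.6 and 31.4 CPM. The difference of 0.27 ± 0.09 missed the threshold (edgeR adjusted p = 0.0801) with all 3 late libraries above both untreated ones.

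Of the mitochondrial folate enzymes, MTHFD2 (chr2:74425690-74442424, plus strand), the dehydrogenase and cyclohydrolase, stood at 191 and 176 CPM in untreated cells. At 96 h it stood at 225, 247 and 238 CPM. The groups lay well apart, and MTHFD2 rose by 0.36 ± 0.07 (edgeR adjusted p = 0.00432), the highest log2 value after CBS among the 10. SHMT2 (chr12:57624143-57628718, plus strand) went from 208 and 218 CPM to 249, 235 and 266 CPM, a rise of 0.23 ± 0.06 (edgeR adjusted p = 0.0281). ALDH1L2 (chr12:105413562-105478341, minus strand), the formyltetrahydrofolate dehydrogenase, went from 140.2 and 151 CPM to 180.4, 180.3 and 165 CPM, a rise of 0.26 ± 0.08 (edgeR adjusted p = 0.0449). For both genes the lowest 96 h library exceeded the highest untreated one. The ALDH1L2 call was lost in 10 of 22 alternatives, among them limma-voom (adjusted p = 0.0597), the strand measure as a covariate, and without either untreated library, any of the 96 h libraries, 24 h replicate 1, 48 h replicate 2 or 72 h replicate 1. MTHFD1L (chr6:151187469-151423023, plus strand), the formate-releasing synthetase, stood at 118 and 118 CPM untreated and at 139, 136 and 129 CPM at 96 h. All 3 late libraries were higher, and the difference of 0.19 ± 0.06 fell just short of the threshold (edgeR adjusted p = 0.0517). It passed in 7 of 22 alternatives, DESeq2 (adjusted p = 0.0360) and limma-voom (0.0409) among them, so that DESeq2 called 7 members higher and 1 lower.

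Of the cytosolic folate enzymes, neither was higher at 96 h. MTHFD1 (chr14:64854759-64926725, plus strand), whose product performs several reactions of the cytosolic cycle, stood at 85.4 and 83.1 CPM in untreated cells. At 96 h it stood at 69.3, 73.4 and 63.7 CPM. The 96 h libraries were all below both untreated ones, and MTHFD1 fell by 0.29 on the log2 scale (SE 0.07, edgeR adjusted p = 0.0155). SHMT1 (chr17:18231174-18266877, minus strand) stood at 17.7 and 19.6 CPM untreated and at 15.7, 17.7 and 16.7 CPM at 96 h, a difference of -0.16 ± 0.10 (edgeR adjusted p = 0.407). The values 17.7 in both groups differ only in the next digit, so its groups all but touch.

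CBS (chr21:44473301-44496040, minus strand), which opens transsulfuration, changed most of the 10. It stood at 71.0 and 72.2 CPM in untreated cells and at 110.4, 106 and 118 CPM at 96 h, a mean of 71.6 ± 0.845 (SD, n = 2) against 111 ± 6.03 (SD, n = 3). The 96 h libraries all lay far above the untreated ones, and CBS rose by 0.64 ± 0.07 on the log2 scale, 1.55 times, with an edgeR adjusted p of 2.00e-05. The table also lists CBSL, a near-identical copy, at the same place and strand, with 90.7% to 93.7% of the CBS counts, so the CBS value cannot be separated from that row. The end of SHMT1 overlaps SMCR8 on the opposite strand and SHMT2 overlaps NDUFA4L2 on the opposite strand, and the strand setting of the counting is not given in the sources used here. NDUFA4L2 had 16 to 62 counts per library beside 2085 to 3160 for SHMT2, whereas SMCR8 had 388 to 524 beside 171 to 228 for SHMT1, so SHMT1 is the less certain of these values.

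Leaving out 1 library changed the number of members called at 96 h. Without untreated replicate 2 it was 1, CBS. Without untreated replicate 1, or without 96 h replicate 3, it was 4, namely PHGDH, PSAT1, MTHFD2 and CBS. With the strand measure as a covariate 1 of 10 was called, again CBS, while 10 of 10 kept their sign, with a median log2 fold change of 0.24 and a median SE of 0.12 in place of 0.07.

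**Figure D2:**
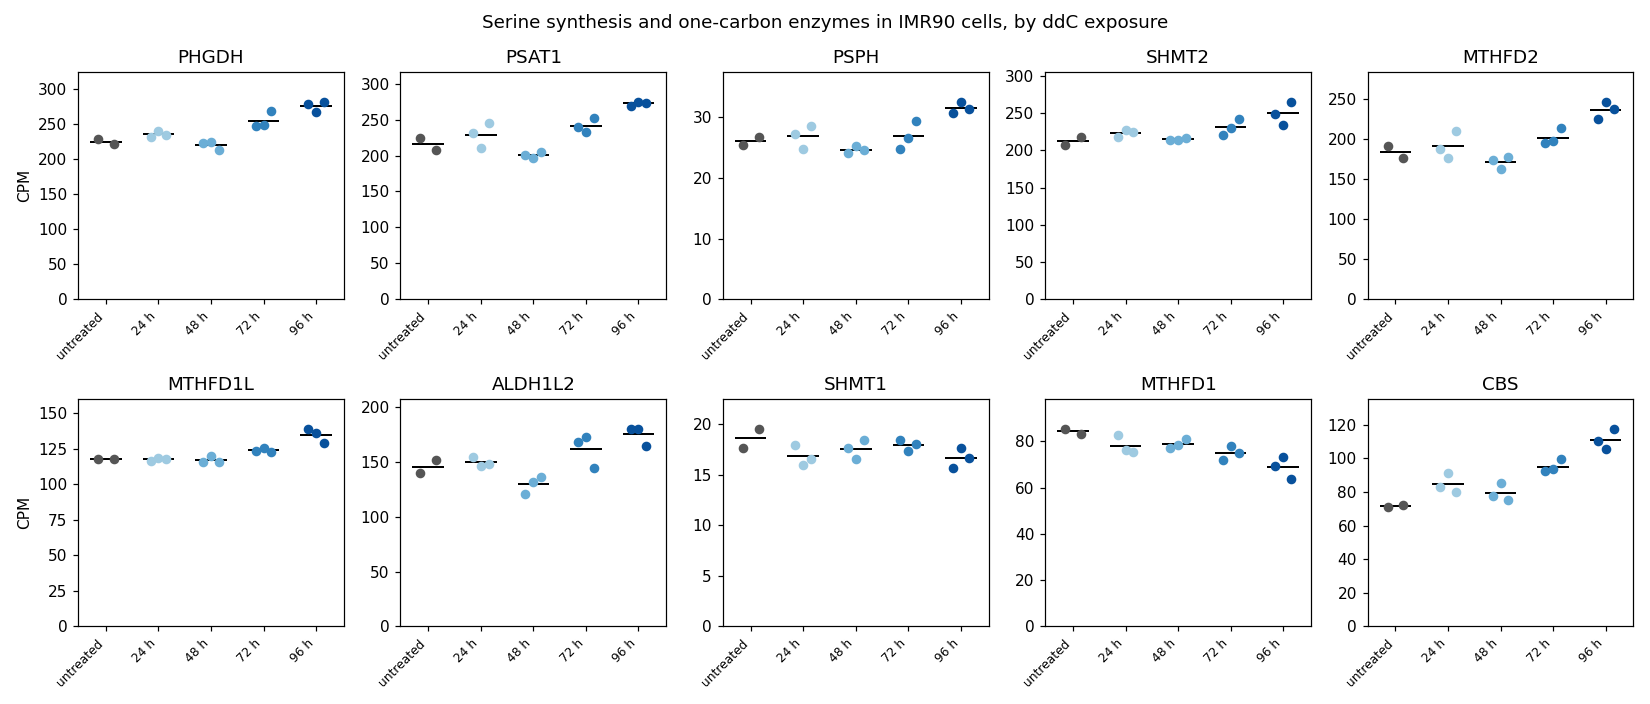
CPM of each member in each of the 14 libraries by hours of ddC; points are libraries, bars are group means, and every axis starts at 0. CBS climbs from 71.6 CPM untreated to 111 CPM at 96 h, MTHFD1 declines from 84.3 to 68.8 CPM, and most members have their lowest ddC mean at 48 h.

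**Figure D3:**
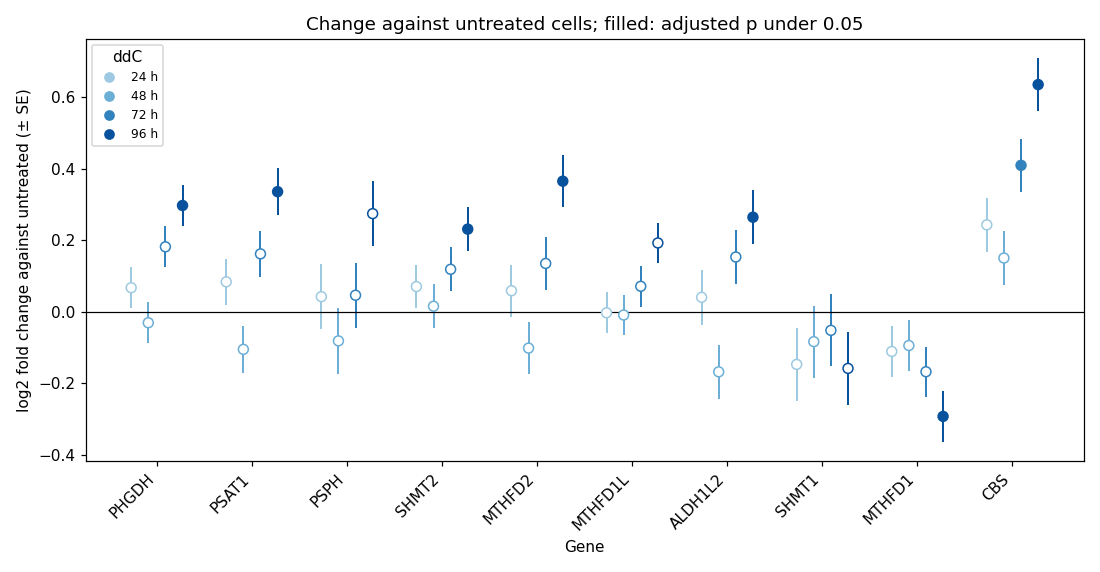
log2 fold change of each member against untreated cells at 24, 48, 72 and 96 h, with the SE as bars and filled points where the edgeR adjusted p was under 0.05. At 96 h 7 members are filled, at 72 h CBS alone and at 24 and 48 h none.

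The promoter of each member was looked up in RefSeq, in windows of 250 bases before the start site to 50 after it in GRCh38.p14, a later build than the hg19 of the counts. Windows were found for 7 of the 10 members, 12 windows in all because some genes have several starts, and none for PSPH, SHMT2 or ALDH1L2. The motifs searched on both strands were TGATGNAA, the letters of the ATF4 and C/EBP composite element, CACGTG, an E-box that MYC family factors bind, CCAAT, the NF-Y box, and TGACG, the core that CREB and ATF factors share. Shown are the 250 upstream bases for 3 members that rose at 96 h, PHGDH and PSAT1 of the serine branch and MTHFD2 of the mitochondrial one, and for the paired synthetases MTHFD1L and MTHFD1, whose values moved apart. Capitals mark the matches.
PHGDH (chr1:119711684-119711933, plus strand): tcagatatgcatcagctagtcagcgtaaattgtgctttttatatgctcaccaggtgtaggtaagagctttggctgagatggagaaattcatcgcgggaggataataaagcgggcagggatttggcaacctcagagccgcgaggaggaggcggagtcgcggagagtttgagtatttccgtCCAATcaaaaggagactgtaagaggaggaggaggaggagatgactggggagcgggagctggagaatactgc
PSAT1 (chr9:78296875-78297124, plus strand): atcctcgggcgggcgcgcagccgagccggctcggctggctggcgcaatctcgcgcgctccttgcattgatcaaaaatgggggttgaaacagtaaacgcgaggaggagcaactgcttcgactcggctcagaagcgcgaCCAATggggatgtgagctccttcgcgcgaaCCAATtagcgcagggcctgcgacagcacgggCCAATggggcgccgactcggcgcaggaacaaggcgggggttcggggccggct
MTHFD2 (chr2:74198365-74198614, plus strand): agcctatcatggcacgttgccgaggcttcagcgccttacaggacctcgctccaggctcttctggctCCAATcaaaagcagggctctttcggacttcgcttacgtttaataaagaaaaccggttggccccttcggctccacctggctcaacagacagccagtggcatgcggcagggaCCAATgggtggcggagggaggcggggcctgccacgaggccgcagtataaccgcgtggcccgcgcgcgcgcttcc
MTHFD1L, window 3 (chr6:150866236-150866485, plus strand): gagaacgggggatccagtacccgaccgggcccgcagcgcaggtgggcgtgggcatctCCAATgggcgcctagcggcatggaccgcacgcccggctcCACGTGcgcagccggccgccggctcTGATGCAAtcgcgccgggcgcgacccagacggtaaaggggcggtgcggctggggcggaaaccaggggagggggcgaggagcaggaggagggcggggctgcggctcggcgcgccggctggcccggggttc
MTHFD1 (chr14:64388103-64388352, plus strand): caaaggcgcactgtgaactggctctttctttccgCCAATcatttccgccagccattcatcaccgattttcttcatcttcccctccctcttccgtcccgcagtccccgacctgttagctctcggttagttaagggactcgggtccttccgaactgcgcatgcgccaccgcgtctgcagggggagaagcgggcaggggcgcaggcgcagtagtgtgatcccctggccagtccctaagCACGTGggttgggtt

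CCAAT was present in all 7 members and in 10 of the 12 windows, against 34.6% of all 34796 windows and 39.7% of all 27305 genes. MTHFD1L windows 1 to 3 overlap and hold the same CCAAT, so that 1 site counts in each of them. PSAT1 carried it 3 times, beginning 113, 83 and 52 bases before the start. PHGDH carried it 71 bases before the start, MTHFD2 184 and 74 bases before, and MTHFD1 216 bases before. TGATGNAA was found in 1 member, MTHFD1L, against 4.46% of all genes. It began 129 and 90 bases before the start in windows 3 and 2, but 25 bases after it in window 1. CACGTG was found in 2 members, MTHFD1L and MTHFD1, against 8.77% of all genes. It began 15 bases before the start in MTHFD1. In MTHFD1L it began 154, 115 and 1 bases before the start in windows 3, 2 and 1. TGACG was found in 0 of the 7 and in 28.4% of all genes. In the sequences shown, matches of different motifs did not overlap. A match is a description of these letters and not a measured binding site.

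By group means, the course from untreated to 96 h was not steady for most members, and 48 h was not tested against 24 h. The 4 comparisons with untreated cells share the same 2 untreated libraries. At 24 h 0 of the 10 members and 0% of all genes were called by edgeR, DESeq2 and limma-voom also called 0 members, and 1 member, CBS, had an unadjusted p under 0.05, beside 3.42% of all genes. CBS stood at 82.9, 91.2 and 80.0 CPM at 24 h, each above both untreated libraries, a difference of 0.24 ± 0.07 (unadjusted p = 0.0039, edgeR adjusted p = 0.999). The other members lay between -0.15 and 0.08 on the log2 scale, SHMT1 at -0.15 ± 0.10 and MTHFD1 at -0.11 ± 0.07 lowest. Groups did not overlap for 3 members that were higher and 1 that was lower at 24 h, beside 7.8% and 8.11% of all genes.

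At 48 h the group means of most members stood below those at 24 h. By edgeR 0 of 10 members and 0.00748% of all genes were called at 48 h, DESeq2 and limma-voom also called 0 members, and 1 member had an unadjusted p under 0.05, beside 6.01% of all genes. That member was ALDH1L2, at -0.17 ± 0.08 (unadjusted p = 0.0384, edgeR adjusted p = 0.827). ALDH1L2 stood at 155, 147 and 148 CPM at 24 h and at 121, 132 and 136 CPM at 48 h, with the 3 later values all lower than the untreated pair. PSAT1 stood at 231, 210.5 and 245 CPM at 24 h and at 201, 196 and 205 CPM at 48 h, where its log2 difference from untreated cells was -0.11 ± 0.06 (edgeR adjusted p = 0.858). MTHFD2 was at 174, 163 and 177 CPM at 48 h, a difference of -0.10 ± 0.07 (edgeR adjusted p = 0.872) with 1 value inside the untreated range. The members' median was -0.08 on the log2 scale, beside 0.0033 over all genes tested. Only 2 of the 10 differences were above 0 at 48 h, those of CBS at 0.15 ± 0.07 and SHMT2 at 0.01 ± 0.06. Groups did not overlap for 1 higher and 4 lower members, beside 11.7% and 12% of all genes.

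At 72 h 8 of 10 differences were above 0, with a median of 0.13 beside 0.0044 over all genes tested, and CBS was the 1 member called. CBS stood at 92.2, 93.6 and 99.5 CPM, all above every untreated and 24 h library, a rise of 0.41 ± 0.07 (edgeR adjusted p = 0.0184), beside 0.142% of all genes called higher and 0.179% in either direction. That call was lost without either untreated library (adjusted p 0.390 and 0.368), without 72 h replicate 1 or 3 (0.0718 and 0.0852), with the compared groups alone (0.0674) and with the strand measure as a covariate (0.654), while the log2 value stayed between 0.38 and 0.43 in these fits. The next differences were those of PHGDH, at 247, 249.7 and 269 CPM (0.18 ± 0.06, edgeR adjusted p = 0.332), and PSAT1, at 239, 233 and 253 CPM (0.16 ± 0.07, edgeR adjusted p = 0.590). MTHFD1 stood at 71.8, 78.1 and 75.1 CPM, below both untreated libraries, at -0.17 ± 0.07 (edgeR adjusted p = 0.613). ALDH1L2 had 2 high libraries and 1 at the untreated level (168, 173 and 145 CPM). The 2 high ones, replicates 1 and 2, had the most alike counts over tested genes of any same-group pair. Their chi-square per degree of freedom was 1.66, beside 2.79 to 10.6 for the other pairs. Groups did not overlap for 6 higher members and 1 lower one, beside 12% and 12.2% of all genes.

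The step from 48 to 72 h was compared after the values had been seen, because most members had their lowest mean among the ddC times at 48 h. That choice favours a rise, so the members' p-values, calls and counts here cannot be weighed against the shares over all genes. By edgeR 0 of 10 members were called, beside 0.0598% of all genes, and 5 members had an unadjusted p under 0.05, beside 5.32% of all genes. DESeq2 called 3 of them, PHGDH, PSAT1 and ALDH1L2, and limma-voom 0. Differences were above 0 for 9 of 10, with a median of 0.17, and 7 members were higher and 0 lower with no overlap between the times, beside 4.86% and 4.92% of all genes. ALDH1L2 differed by 0.32 ± 0.07 (edgeR adjusted p = 0.0866), PSAT1 by 0.27 ± 0.06 (0.102), CBS by 0.26 ± 0.07 (0.269), MTHFD2 by 0.24 ± 0.07 (0.377) and PHGDH by 0.21 ± 0.05 (0.223).

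The comparison of 96 h with 24 h ddC takes its difference from ddC libraries alone, with the untreated pair entering only the estimate of the spread. It called 5 of 10 members, all higher at 96 h, beside 2.58% of all genes higher and 3.2% in either direction. CBS rose by 0.39 ± 0.07 (edgeR adjusted p = 0.000831), MTHFD2 by 0.31 ± 0.07 (0.00870), PSAT1 by 0.25 ± 0.06 (0.0156), PHGDH by 0.23 ± 0.05 (0.0122) and MTHFD1L by 0.20 ± 0.05 (0.0376). MTHFD1L stood at 116, 118 and 118 CPM at 24 h, all below its 96 h libraries. Its call was the least stable of the 5, lost in 12 of 22 alternatives, among them no count filter (0.0784), the compared groups alone (0.122) and either untreated library left out (0.0539 and 0.0552). For MTHFD1, at 82.7, 76.3 and 75.2 CPM at 24 h, the difference of -0.18 ± 0.06 missed the threshold (edgeR adjusted p = 0.142), as did those of ALDH1L2 (0.22 ± 0.07, 0.0803), PSPH (0.23 ± 0.08, 0.137) and SHMT2 (0.16 ± 0.05, 0.126). The members' median was 0.23, beside -0.012 over all genes tested. Groups did not overlap for 8 members that were higher and 1 that was lower, beside 10.8% and 8.2% of all genes. Without 24 h replicate 1 or 2, or without 96 h replicate 2 or 3, 3 members were called, and without 96 h replicate 1 it was 2. CBS and MTHFD2 stayed called in every fit with 1 library left out, and 0 members were called with the strand measure as a covariate.

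A linear trend over the 4 ddC times, fitted on the 12 ddC libraries, called 3 members, all with a rising slope, beside 2.45% of all genes rising and 3% in either direction. Without untreated libraries along these times, such a slope cannot be told apart from one due to time in culture. The log2 slope per 24 h was 0.14 ± 0.03 for CBS (edgeR adjusted p = 0.00379), 0.09 ± 0.02 for PHGDH (0.0173) and 0.07 ± 0.02 for MTHFD1L (0.0365). MTHFD2 had a slope of 0.11 ± 0.03 (edgeR adjusted p = 0.0508) and PSAT1 of 0.10 ± 0.03 (0.0681), and neither passed the threshold. MTHFD1 had a slope of -0.06 ± 0.02 (0.134), and SHMT1 had none that could be told from 0 (adjusted p = 0.997). The MTHFD1L call was lost in 8 of 19 alternatives: the replicate block (adjusted p = 0.0514), the strand measure as a covariate, and without 24 h replicate 1, 48 h replicate 2 or 3, or any of the 96 h libraries. Only CBS was called without 96 h replicate 1 and without 96 h replicate 3, and 0 members were called with the strand measure as a covariate.

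Mitochondrial and cytosolic partners were compared as count ratios within each library, which do not depend on scaling between libraries. Counts were not divided by transcript length here, so a ratio does not give the relative levels of the partners, only how they change between libraries. These ratios were not tested with the strand measure as a covariate. MTHFD1L counts were 1.40 ± 0.0225 times those of MTHFD1 in untreated cells (SD, n = 2), 1.51 ± 0.0885 at 24 h, 1.48 ± 0.0536 at 48 h, 1.65 ± 0.0608 at 72 h and 1.96 ± 0.0951 at 96 h (SD, n = 3 each). Its log2 slope over the ddC times was 0.13 per 24 h, and a two-sided permutation test over the 12 ddC libraries gave p = 0.00042, or 0.00126 adjusted over the 3 ratios tested. The ratio of MTHFD2 to MTHFD1 went from 2.18 ± 0.0789 in untreated cells to 2.46 ± 0.290, 2.17 ± 0.0924, 2.69 ± 0.162 and 3.45 ± 0.255 at the 4 times, a slope of 0.18 (permutation p = 0.00428, adjusted 0.00642). In both ratios the 96 h libraries lay above all others. Both are divided by MTHFD1, which was lower at 96 h than in untreated cells, so the MTHFD1L and MTHFD2 ratios are not independent of each other. The ratio of SHMT2 to SHMT1 was 11.4 ± 0.418 in untreated cells and 13.3 ± 1.02, 12.3 ± 0.627 and 12.9 ± 0.786 at 24, 48 and 72 h, and 15.8, 13.3 and 16.0 in the 3 libraries at 96 h. Its slope of 0.06 did not pass (permutation p = 0.123, adjusted 0.123), except without 24 h replicate 2 (adjusted p = 0.0435), and 1 of the 96 h libraries lay within the range of the earlier times.

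**Figure D4:**
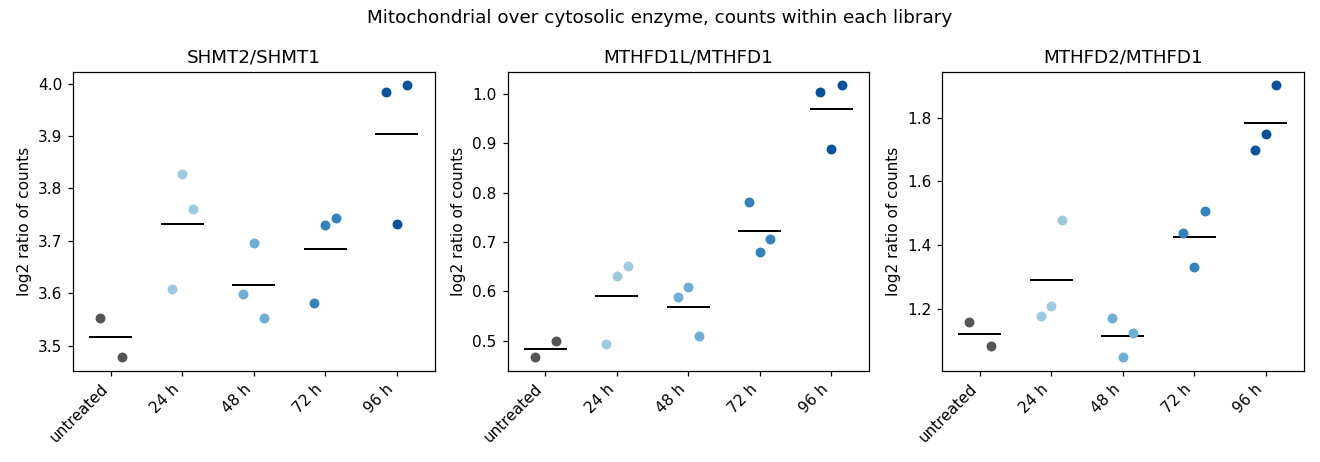
log2 ratio of counts of the mitochondrial over the cytosolic enzyme in each library by hours of ddC; points are libraries and bars are group means. MTHFD1L over MTHFD1 and MTHFD2 over MTHFD1 are highest in all 3 libraries at 96 h, whereas SHMT2 over SHMT1 overlaps between times.

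Around these enzymes, a wider list of 44 genes of serine, glycine, folate, methionine and transsulfuration metabolism in the table had 35 that were tested. At 24, 48 and 72 h edgeR, DESeq2 and limma-voom each called 0 of them, with 0, 1 and 3 genes at an unadjusted p under 0.05 in edgeR. At 96 h 2 were higher and 0 lower by each of these tools, both of them amino acid carriers, and the median log2 fold change was 0.0038. That count of 35 is near the 5.68% called over all genes. Groups did not overlap for 4 genes of the list that were higher and 11 that were lower, beside 20.6% and 19.8% of all genes. SLC1A4, a carrier of serine and other small neutral amino acids, rose by 0.34 ± 0.07 (edgeR adjusted p = 0.00574), and SLC1A5, a carrier of glutamine and related amino acids, by 0.28 ± 0.06 (0.00717). Both were also called in 96 h against 24 h (0.32 and 0.26, edgeR adjusted p 0.00450 and 0.00631) and in the trend (0.11 and 0.09 per 24 h, 0.0042 and 0.0124). The calls of both at 96 h against untreated cells were lost without either untreated library and with the strand measure as a covariate. With that covariate 0 genes of the list were called for 96 h against 24 h and 0 in the trend. In the trend 1 gene of the list was called without 96 h replicate 1, and 1 without 96 h replicate 3. CTH, which follows CBS in transsulfuration, was scarce at 3.72 ± 0.724 CPM (SD, n = 2) untreated and 6.10 ± 0.827 CPM (SD, n = 3) at 96 h, and its difference of 0.71 ± 0.24 did not pass (edgeR adjusted p = 0.0803). Where no gene of the list was called, the smallest p-values belonged at 24 h to ALDH7A1 (0.14 ± 0.08), MTHFD2L (-0.43 ± 0.29) and SFXN1 (-0.10 ± 0.07), all at an edgeR adjusted p of 0.999. At 48 h they belonged to GCLC (-0.19 ± 0.09), MTRR (-0.14 ± 0.08) and GCLM (-0.13 ± 0.07), with edgeR adjusted p from 0.827 to 0.841. At 72 h they belonged to GCLC (-0.26 ± 0.09), SLC1A4 (0.17 ± 0.07) and ALDH7A1 (0.19 ± 0.08), with edgeR adjusted p from 0.454 to 0.651.

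ATF4 stood at 239 and 254 CPM in untreated cells and at 312, 296 and 316 CPM at 96 h, a rise of 0.32 ± 0.06 (edgeR adjusted p = 0.00114). Its values at 24 h (255, 253 and 262 CPM) and 48 h (245, 248 and 240.4 CPM) lay near the untreated ones, and those at 72 h (282, 273 and 291 CPM) were all higher (0.19 ± 0.06, edgeR adjusted p = 0.246). It rose against 24 h by 0.26 ± 0.05 (0.00303). Of 20 genes listed as ATF4 and others linked to its response outside the members, 19 were tested, and 12 were higher and 0 lower at 96 h, beside 3.57% and 2.11% of all genes, with a median log2 fold change of 0.40 beside -0.0039 over all genes. Without either untreated library 7 were higher, and with the strand measure as a covariate 5. The 96 h call of ATF4 itself was lost without untreated replicate 1 (adjusted p = 0.0508) and with that covariate (0.0940).

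As a description over the 14 libraries, which share these 5 groups, the genes outside the members most like PHGDH in log2 CPM were SLC3A2 (Pearson r 0.96, Spearman rho 0.91), ATF4 (0.96 and 0.89) and DDIT4 (0.95 and 0.96). For PSAT1 they were GARS (0.97 and 0.94), EFEMP1 (0.95 and 0.95) and FERMT2 (0.94 and 0.91). For MTHFD2 they were GARS (0.97 and 0.97), ASNS (0.95 and 0.94) and FSTL1 (0.95 and 0.94). GARS, the glycyl-tRNA synthetase, was thus the nearest gene to both PSAT1 and MTHFD2.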

How the data were processed

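PolyA RNA from 14 IMR90 samples was made into libraries by a strand-marking protocol, per the labels. The authors deposited 1 table of whole-number read counts for 27142 genes with hg19 coordinates and a transcript length, in bases. STAR 2.5.3a and HOMER are named, per the submitters' processing notes; the version of HOMER and the strand setting are not given in the sources used here. Mitochondrial transcripts were not analysed here.

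Genes passing edgeR's filterByExpr (minimum count 10, minimum total 15) were tested with edgeR 4.0.16 (quasi-likelihood, robust, TMM factors 0.971 to 1.02) in R 4.3.3, with 1 mean per group over all 14 libraries. P-values were adjusted by Benjamini-Hochberg over 13371 genes, and an adjusted p under 0.05 counted as a call. The SE is the log2 fold change divided by the square root of F. CPM are counts relative to the TMM-scaled total of tested genes. For the cell markers and the 200 CPM cut of the strand measure they are relative to the unscaled library total. The trend used the 12 ddC libraries, and the log2 count ratios of 3 enzyme pairs a permutation test with 100000 resamples. The strand measure used 120 genes of at least 200 CPM and opposite-strand neighbours under 1% of them. Scripts were tested on simulated data.

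Groups came from the sample labels. The members and gene lists were chosen with earlier results of these data known, and the 48 to 72 h comparison after its values were seen. All 10 members and ATF4 were named, then called genes of the wider list or, with none called, the 3 of smallest p, and the 3 genes closest to PHGDH, PSAT1 and MTHFD2; CTH was named after its values were seen. Alternatives were DESeq2 1.42.0, limma-voom 3.58.1, median-ratio factors, no count filter, a replicate block, the compared groups alone, 2 covariates and each library left out.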

Additional observations from a re-analysis of the deposited data

How the results depend on the processing

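CBS was called at 96 h in all 22 alternatives (log2 fold change 0.59 to 0.67), whereas the other 6 calls at that time were lost without untreated replicate 2 and with the strand covariate. The cause of the shifts below was not tested. With the strand measure as a covariate, members called were 0 at 72 h, 1 at 96 h, 0 for 96 h against 24 h and 0 for the trend, and genes called were 2, 123, 21 and 19, with 1 for 72 h against 48 h. With the level of 4 nuclear-retained RNAs (KCNQ1OT1, MEG3, NEAT1 and MALAT1) as the covariate, genes called were 1, 34, 248 and 1836 at 24, 48, 72 and 96 h. They were 1060 for 96 h against 24 h, 933 for the trend and 67 for 72 h against 48 h. Members called with that covariate were 3 at 72 h, 9 at 96 h, 7 for 96 h against 24 h, 5 for the trend and 5 for 72 h against 48 h. The fits as reported called 0, 1, 24, 759, 428, 401 and 8 genes in these comparisons.

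DESeq2 called 1 gene at 24 h, 57 at 72 h and 35 for 72 h against 48 h, with 5 members in the trend and 3 for 72 h against 48 h. Limma-voom called 0 genes at 48 h and 2 for 72 h against 48 h. Without the count filter 1, 3 and 47 genes were called at 24, 48 and 72 h and 20 for 72 h against 48 h, with 1 member in the last. The compared groups alone gave 0 members and 7 genes at 72 h, and 9 members and 1646 genes at 96 h. Pairing of libraries by replicate number was not clear. In deviations from the group mean, 11 of 26 same-number pairs had a correlation over 0.1, and 6 of 14 libraries correlated best with their own number. The deviations of the 2 untreated libraries mirror each other by construction, so this check cannot exclude pairing. The replicate block gave 7 members and 687 genes at 96 h, 2 members and 357 genes for the trend, and 1 member and 15 genes for 72 h against 48 h.

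With each library left out in turn, members called ranged from 0 to 1 at 72 h, 1 to 8 at 96 h, 2 to 6 for 96 h against 24 h, 1 to 5 for the trend and 0 to 1 for 72 h against 48 h. Genes called ranged from 0 to 1, 0 to 2, 1 to 35 and 174 to 1034 at 24, 48, 72 and 96 h, 223 to 545 for 96 h against 24 h, 157 to 514 for the trend and 1 to 16 for 72 h against 48 h. The correlation of the SHMT2 to SHMT1 log2 ratio with time ranged from 0.321 to 0.618.

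Signs turned only among uncalled values near 0. The replicate block gave MTHFD1L 0.0080 at 24 h and 0.0014 at 48 h, and SHMT2 -0.0070 at 48 h. The strand covariate gave SHMT2 -0.0092 and MTHFD1L 0.0013 at 48 h, and SHMT1 -0.012 for 72 h against 48 h. The SHMT1 trend was 0.0012 with median-ratio factors, 0.0013 with DESeq2 and 0.00060 without the filter. With libraries left out, log2 values at 24 h ranged from -0.016 to 0.098 for ALDH1L2, -0.011 to 0.114 for MTHFD2 and -0.0048 to 0.099 for PSPH, at 48 h from -0.023 to 0.050 for SHMT2, and at 72 h from -0.020 to 0.096 for PSPH and -0.128 to 0.020 for SHMT1. SHMT1 ranged from -0.051 to 0.037 for 96 h against 24 h, -0.015 to 0.015 for the trend and -0.0097 to 0.070 for 72 h against 48 h. At 171 to 228 counts per library, SHMT1 has the least precise of the members' values.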
